A study of Saccharomyces cerevisiae with 4 samples.

Results

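The genes described here are the 32 subunits of the 26S proteasome that carry PRE, PUP, SCL1, RPN or RPT names, together with the transcription factor gene *RPN4* and the polyubiquitin gene *UBI4*. They were chosen by name and systematic identifier, not by a filter on their values, although earlier results of these data were known. They make 34 of the 4777 genes in the deposited count matrix. The subunits fall into 14 of the 20S core, 10 of the 19S base and 8 of the 19S lid. They were measured by yeastDrop-Seq, a droplet-based single-cell RNA sequencing method for yeast, in haploid BY4741 cells (MATa his3Δ1 leu2Δ0 met15Δ0 ura3Δ0) grown for 18 h in minimal medium with glucose. The study asked how mycophenolic acid (MPA), an inhibitor of IMP dehydrogenase in GMP synthesis, and guanine, which feeds GMP synthesis by the salvage route, affect single-cell transcriptomes. The 4 conditions were MPA (10 µM, with DMSO), MPA + Guanine (10 µM of each, with DMSO), Guanine (10 µM, with no DMSO named in the Methods) and DMSO, the vehicle. The Guanine condition may therefore differ from DMSO in the vehicle as well as in guanine.

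The proteasome is the protease that degrades ubiquitin-tagged proteins. Its barrel-shaped 20S core is built of alpha rings, which gate entry, and beta rings, which hold the proteolytic sites. The 19S cap sits on the core, where the base unfolds substrates with a ring of RPT ATPases and binds ubiquitin through non-ATPase subunits, while the lid removes the ubiquitin chains. In budding yeast the subunit genes are activated together by Rpn4, which binds the proteasome-associated control element (PACE) in their promoters and is itself a short-lived proteasome substrate.

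The PACE sequence is already known from the promoters of these genes. A high share of matches among them is therefore no independent finding. The 9-base motif GGTGGCAAA, searched on both strands of the 300 bases before each start codon in the R64 reference genome from RefSeq, was present upstream of 27 of the 32 subunit genes and of *UBI4*, against 73 of all 6001 genes (1.22%). Counted the other way, 28 of the 73 genes with the motif were members of the set, which is 38.4% of the motif genes and 82.4% of the members. By class it lay upstream of 12 core, 8 base and 7 lid genes. The genes without a match were *PRE5*, *PUP1*, *RPN8*, *RPN10*, *RPN13* and *RPN4*. The 7-base core of the motif, GGTGGCA, which lies inside the longer motif, gave a match in the same number of subunit genes and in 163 of the 6001 genes (2.72%). A match is a description of the reference sequence, and binding of Rpn4 was not measured. Each of the 28 genes held a single 9-base match, between 76 and 175 bases from the start codon (median 114), 19 in the direction of the gene and 9 on the opposite strand. The following windows of 29 bases, read on the strand of the gene with the motif in capitals, are those of 5 subunits that stood far apart between the MPA + Guanine and Guanine libraries, of *RPT6*, which did not, and of *UBI4*.
RPN2, chrIX:220801-220829, minus strand: atttattttcGGTGGCAAAactggataca
RPN1, chrVIII:164838-164866, minus strand: tgtgttttacGGTGGCAAAaggcgagcac
RPN7, chrXVI:742290-742318, plus strand: ataagttaagTTTGCCACCcattgaggat
RPT2, chrIV:437906-437934, plus strand: gtttttctccGGTGGCAAAtgtctctttt
PUP2, chrVII:999226-999254, minus strand: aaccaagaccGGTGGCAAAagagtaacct
RPT6, chrVII:411352-411380, minus strand: atgcgagcgaGGTGGCAAAagttgtaata
UBI4, chrXII:65349-65377, minus strand: ggctccgggtTTTGCCACCtttgaattcg

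**Figure D1:**
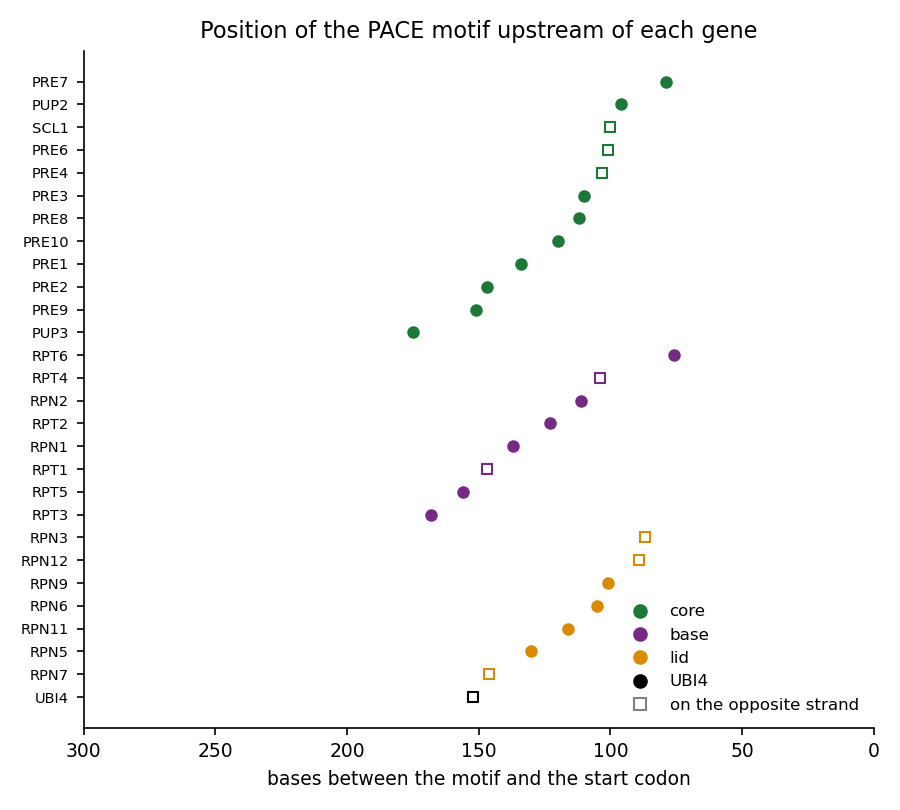
Distance in bases between the PACE motif and the start codon for the 28 genes that hold it, by class. Filled circles are motifs in the direction of the gene and open squares motifs on the opposite strand, and all lie between 76 and 175 bases.

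The deposited matrix held 844 cell barcodes, none shared between libraries, with 85 cells in MPA, 268 in MPA + Guanine, 258 in Guanine and 233 in DMSO. Unique molecular identifiers (UMIs), which count captured mRNA molecules, came to 102788 in MPA, 279806 in MPA + Guanine, 216768 in Guanine and 311199 in DMSO, and the median per cell was 749.5 to 1250. Each condition was 1 library, so there are no replicates and no test was made, and an effect of the library cannot be told apart from one of the condition. Levels are the UMIs of a gene in all cells of 1 library for every 1000000 UMIs of that library (CPM), and all intervals are exact 95% intervals that cover counting error only. Ribosomal protein genes took 30.5% of the UMIs in MPA, 18.9% in MPA + Guanine, 36.2% in Guanine and 33.2% in DMSO, which moves every other gene's CPM. The median log2 ratio over all genes with at least 50 UMIs was off 0, at 0.18 for MPA over DMSO, 0.15 for MPA + Guanine over Guanine, 0.05 for Guanine over DMSO, 0.26 for MPA + Guanine over DMSO and 0.04 for MPA + Guanine over MPA. With ribosomal protein genes left out of the totals these medians were 0.12, -0.19, 0.12, -0.02 and -0.19 in the same order. Of the mating-type genes, the 5 MATa-specific ones listed were in the matrix and the 3 MATalpha-specific ones were not, and *HIS3* had UMIs in all libraries although it is listed as deleted (his3Δ1 is a partial deletion).

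The proteasome genes took the smallest share of the mRNA in the Guanine library. The 32 subunits together stood at 16023 CPM in MPA, 16844 CPM in MPA + Guanine, 9655 CPM in Guanine and 12866 CPM in DMSO. Both libraries with MPA were thus above both libraries without it, and their intervals (15259 to 16816 CPM in MPA, 16366 to 17332 CPM in MPA + Guanine) overlapped each other. On the log2 scale the sum was 0.80 higher in MPA + Guanine than in Guanine (interval 0.73 to 0.88) and 0.32 higher in MPA than in DMSO (0.23 to 0.40). In Guanine over DMSO it was -0.41 (-0.49 to -0.34). Relative to the median of all genes these differences became 0.65, 0.14 and -0.47, so most of the separation from the other genes lay in the contrasts that include the Guanine library. MPA + Guanine over DMSO gave 0.39, or 0.13 relative to the median. MPA + Guanine over MPA gave 0.07 (-0.01 to 0.15), and -0.15 when ribosomal protein genes were left out of the totals. The contrasts share libraries and are not independent of each other.

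**Figure D2:**
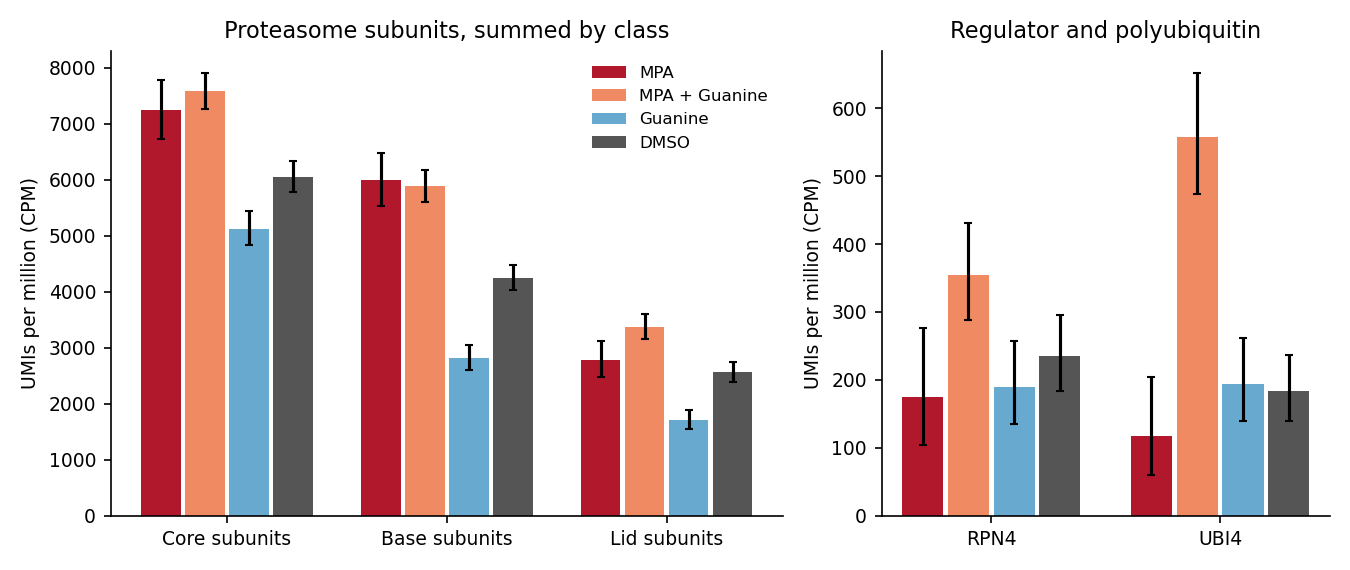
Summed CPM of the core, base and lid subunits (left) and CPM of *RPN4* and *UBI4* (right) in the MPA, MPA + Guanine, Guanine and DMSO libraries, with exact 95% counting intervals as error bars and 1 library per bar. The Guanine bar is the lowest in each subunit class, and *UBI4* is highest in MPA + Guanine.

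Of the classes, the core differed least in the contrasts with the Guanine library. It stood at 7248 CPM in MPA, 7580 CPM in MPA + Guanine, 5125 CPM in Guanine and 6048 CPM in DMSO. The base had 5993 CPM in MPA, 5890 CPM in MPA + Guanine, 2819 CPM in Guanine and 4251 CPM in DMSO. The lid had 2782 CPM in MPA, 3374 CPM in MPA + Guanine, 1712 CPM in Guanine and 2567 CPM in DMSO. The log2 ratio of MPA + Guanine over Guanine was accordingly 0.56 (0.46 to 0.67) for the core, 1.06 (0.93 to 1.20) for the base and 0.98 (0.80 to 1.16) for the lid. For Guanine over DMSO it was -0.24 for the core, -0.59 for the base and -0.59 for the lid. For MPA over DMSO the order was different, with 0.50 (0.36 to 0.63) for the base, 0.26 (0.14 to 0.38) for the core and 0.12 (-0.08 to 0.31) for the lid, and relative to the median of all genes the core was at 0.08 (-0.04 to 0.21) and the lid at -0.06.

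The proportion of the classes within a library does not depend on how libraries are scaled. There were 0.827 base UMIs for each core UMI in MPA, 0.777 in MPA + Guanine, 0.550 in Guanine and 0.703 in DMSO. On the log2 scale this proportion was -0.35 in Guanine over DMSO (-0.53 to -0.18), 0.50 in MPA + Guanine over Guanine (0.33 to 0.67) and 0.23 in MPA over DMSO (0.05 to 0.42). The Guanine library therefore held less base mRNA, as a sum, for its core mRNA than each of the other libraries. The base genes lowest in Guanine over DMSO were *RPN1* (31 UMIs in Guanine, 131 in DMSO) and *RPN2* (55 and 216). The ATPase ring of the base was at -0.37 (-0.55 to -0.19) in that contrast, which overlaps the core at -0.24 (-0.35 to -0.13). The base held 611 UMIs in Guanine and 1323 in DMSO, and the core 1111 and 1882. The base proportion without *RPN1* and *RPN2* was not computed, so the lower proportion cannot be assigned to the base genes as a whole. Lid UMIs per core UMI were 0.384 in MPA, 0.445 in MPA + Guanine, 0.334 in Guanine and 0.425 in DMSO. The log2 ratio of the lid proportion was -0.35 in Guanine over DMSO (-0.56 to -0.14), 0.41 in MPA + Guanine over Guanine (0.21 to 0.62) and -0.15 in MPA over DMSO (-0.38 to 0.09).

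**Figure D3:**
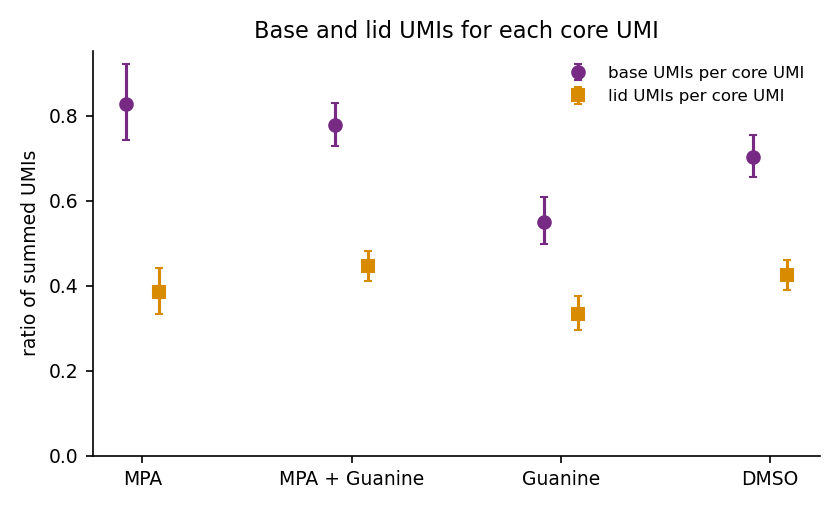
Base UMIs (circles) and lid UMIs (squares) for each core UMI in the 4 libraries, with exact 95% counting intervals and 1 library per point. The base proportion, with *RPN1* and *RPN2* included, is 0.550 in Guanine and 0.703 to 0.827 in the other libraries.

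Within the base, the sum of the non-ATPase subunits differed more between libraries than that of the ATPase ring. The ring (*RPT1* to *RPT6*) had 2705 CPM in MPA, 3052 CPM in MPA + Guanine, 1785 CPM in Guanine and 2301 CPM in DMSO. The non-ATPase subunits (*RPN1*, *RPN2*, *RPN10* and *RPN13*) had 3288 CPM in MPA, 2838 CPM in MPA + Guanine, 1033 CPM in Guanine and 1951 CPM in DMSO. The log2 ratio of MPA + Guanine over Guanine was 1.46 (1.24 to 1.68) for the non-ATPase subunits and 0.77 (0.60 to 0.95) for the ring. For MPA over DMSO it was 0.75 (0.56 to 0.95) for the non-ATPase subunits and 0.23 (0.03 to 0.44) for the ring, which stood at 0.05 (-0.15 to 0.26) relative to the median of all genes. The non-ATPase genes were not alike. In MPA + Guanine over Guanine *RPN2* was at 2.30 and *RPN1* at 1.75. There *RPN10* at 1.04 and *RPN13* at 0.66 lay within the range of the ATPase genes, -0.06 (*RPT6*) to 1.32 (*RPT2*). In the core, the alpha ring had 3882 CPM in MPA, 4024 CPM in MPA + Guanine, 2570 CPM in Guanine and 3181 CPM in DMSO. The beta ring had 3366 CPM in MPA, 3556 CPM in MPA + Guanine, 2556 CPM in Guanine and 2866 CPM in DMSO. The core rings were close to each other in every contrast, with log2 ratios of 0.65 (alpha) and 0.48 (beta) for MPA + Guanine over Guanine.

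Counted gene by gene, 31 of the 32 subunits had at least 50 UMIs over the 4 libraries and a ratio in each contrast. The exception was *RPN3* (YER021W), a lid subunit, with 17 UMIs in MPA + Guanine and 14 in DMSO, and listed at 0 in MPA and in Guanine. A gene is called here when its CPM differs by at least 1.5-fold. In MPA + Guanine over Guanine 18 of the 31 subunits (58.1%) were called higher, against 28.4% of the 2130 genes with a ratio, and none lower, against 18.4%. The subunit median was 0.66, beside 0.15 over all genes, and 30 of 31 subunits lay above 0. In Guanine over DMSO 9 subunits (29.0%) were called lower, against 15.7% of all genes, and 0 higher, against 19.8%. The median there was -0.30, beside 0.05 over all genes, with 27 of 31 below 0.

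For the subunits together, the remaining contrasts gave counts near or below those of all genes. In MPA over DMSO 8 subunits (25.8%) were called higher, against 25.2% of all genes, 1 was called lower, against 10.3%, and the median was 0.24 beside 0.18. By class, 5 of 10 base, 2 of 14 core and 1 of 7 lid genes were called higher there. In MPA + Guanine over DMSO 5 subunits (16.1%) were called higher, against 27.5% of all genes, 0 were called lower, against 10.8%, and the median was 0.39 beside 0.26. In MPA + Guanine over MPA 1 subunit was called higher, against 22.0% of all genes, 2 were called lower, against 21.5%, and the median was 0.12 beside 0.04. Subunit mRNAs other than *RPN3* had 162 UMIs or more each, so genes with few UMIs, whose ratios scatter more by counting error, belong to the background alone. Over genes with at least 100 UMIs, 28.8% were called higher in MPA + Guanine over Guanine, 22.0% higher in MPA over DMSO and 16.7% lower in Guanine over DMSO.

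**Figure D4:**
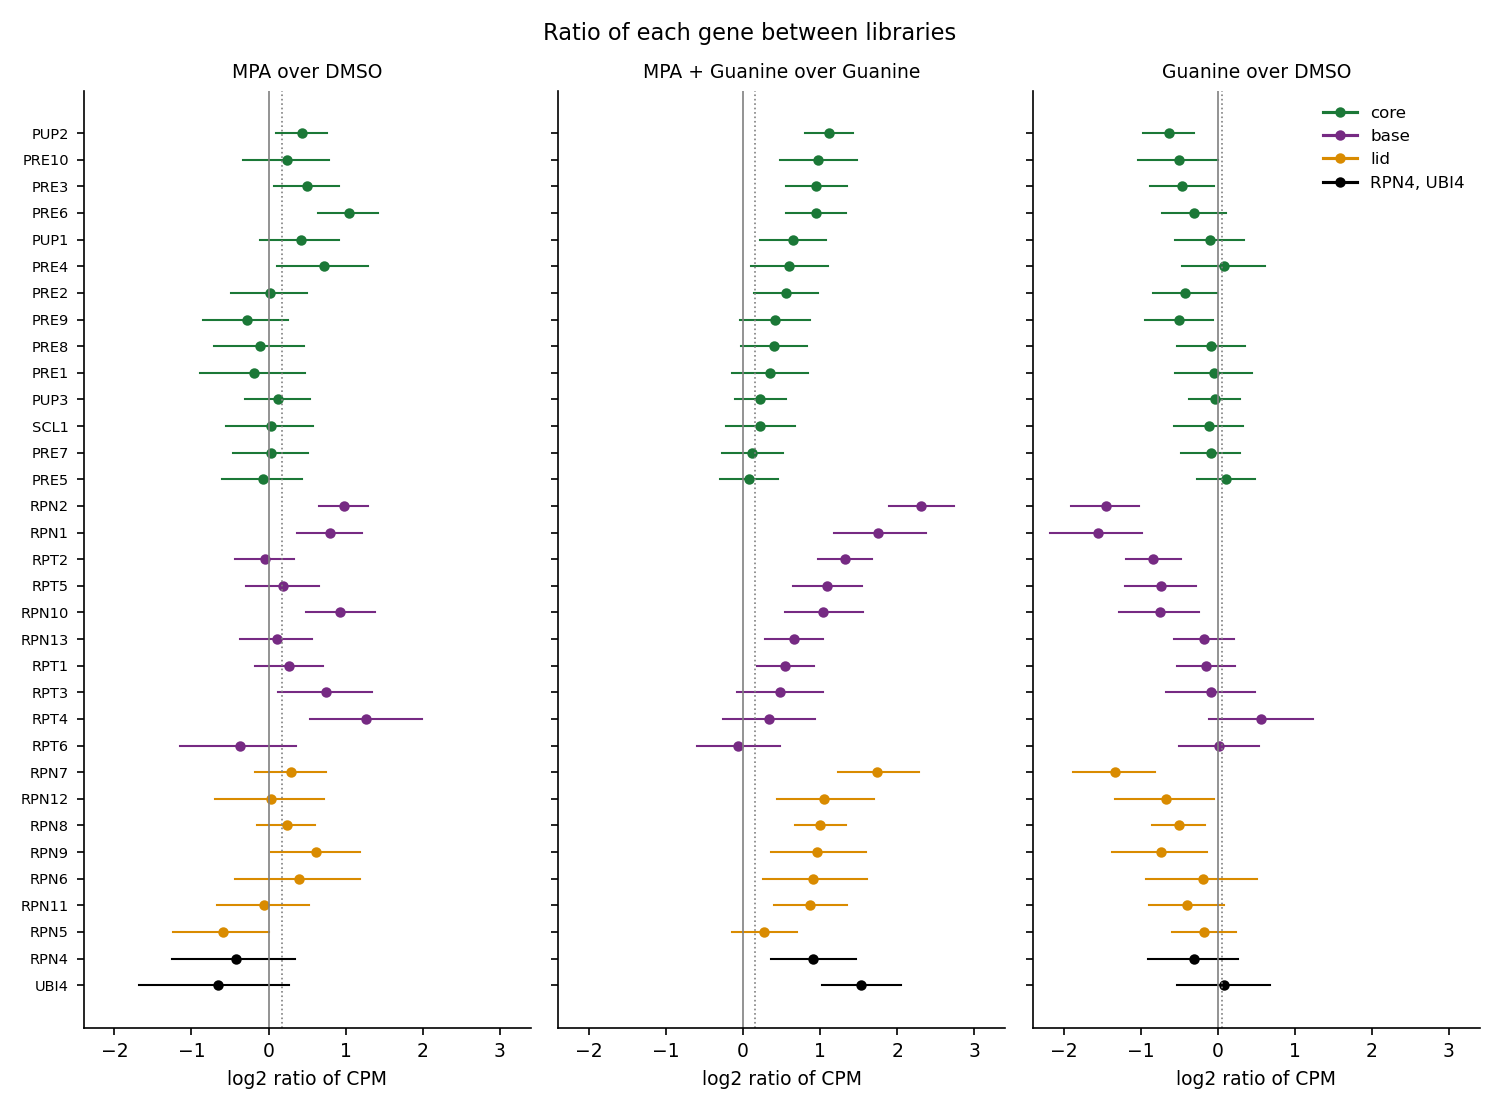
Log2 ratio of CPM for each of 31 subunits and for *RPN4* and *UBI4* in MPA over DMSO (left), MPA + Guanine over Guanine (middle) and Guanine over DMSO (right). Points are ratios of 1 library to 1 library, lines are exact 95% counting intervals, the solid vertical line is 0 and the dotted line is the median of all genes. Base and lid genes reach 2.30 in the middle panel (*RPN2*) and -1.56 in the right panel (*RPN1*).

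Among the non-ATPase base subunits, *RPN2* and *RPN1* encode the large scaffolds of the base, and Rpn1 also receives ubiquitin-like shuttle factors. *RPN2* (YIL075C, chromosome IX) had 1362 CPM in MPA, 1251 CPM in MPA + Guanine, 254 CPM in Guanine and 694 CPM in DMSO. At least 1 *RPN2* UMI was seen in 67.1% of MPA cells, 61.6% of MPA + Guanine cells, 18.6% of Guanine cells and 48.1% of DMSO cells, shares that also follow the depth per cell. Its log2 ratio was 2.30 (1.89 to 2.74) in MPA + Guanine over Guanine, 0.97 (0.66 to 1.29) in MPA over DMSO and -1.45 (-1.91 to -1.02) in Guanine over DMSO, and the first of these was 2.35 without the cell that held most *RPN2* UMIs in each library. This was the largest ratio of any subunit in that contrast. *RPN1* (YHR027C, chromosome VIII) had 730 CPM in MPA, 482 CPM in MPA + Guanine, 143 CPM in Guanine and 421 CPM in DMSO, with ratios of 1.75 (1.18 to 2.37) in MPA + Guanine over Guanine and -1.56 (-2.17 to -0.98) in Guanine over DMSO. *RPN1* stood at 0.79 (0.36 to 1.21) in MPA over DMSO. The Guanine values of both scaffolds lay below those of every other library, with intervals that did not overlap.

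The ubiquitin receptors of the base were less alike. *RPN10* had 681 CPM in MPA, 436 CPM in MPA + Guanine, 212 CPM in Guanine and 357 CPM in DMSO. *RPN13* had 516 CPM in MPA, 668 CPM in MPA + Guanine, 424 CPM in Guanine and 479 CPM in DMSO. *RPN10* was thus highest in MPA, with a log2 ratio of 0.93 (0.48 to 1.38) over DMSO and -0.64 (-1.08 to -0.20) in MPA + Guanine over MPA, whereas *RPN13* was at 0.11 (-0.37 to 0.57) in MPA over DMSO. In MPA + Guanine over Guanine *RPN10* was at 1.04 (0.54 to 1.56) and *RPN13* at 0.66 (0.29 to 1.03). Neither gene has the PACE motif in the 300 bases examined.

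The 6 ATPase genes encode the ring that unfolds substrates, and the ATPases assemble in equal numbers. Their mRNAs nevertheless gave different ratios. *RPT2*, whose product takes part in opening the gate of the core, had 739 CPM in MPA, 1069 CPM in MPA + Guanine, 429 CPM in Guanine and 765 CPM in DMSO. *RPT4* had 302 CPM in MPA, 232 CPM in MPA + Guanine, 185 CPM in Guanine and 125 CPM in DMSO, and was the only ATPase gene with its lowest value in DMSO. *RPT6* had 195 CPM in MPA, 243 CPM in MPA + Guanine, 254 CPM in Guanine and 251 CPM in DMSO. The log2 ratio of MPA + Guanine over Guanine was 1.32 (0.98 to 1.67) for *RPT2*, 1.09 (0.65 to 1.54) for *RPT5*, 0.33 (-0.26 to 0.94) for *RPT4* and -0.06 (-0.60 to 0.48) for *RPT6*. In MPA over DMSO *RPT4* was at 1.27 (0.54 to 1.98), the highest of all subunits, while *RPT2* was at -0.05 (-0.44 to 0.33) and *RPT6* at -0.37 (-1.15 to 0.36). *RPT5* had 516 CPM in MPA, 579 CPM in MPA + Guanine, 272 CPM in Guanine and 453 CPM in DMSO. The PACE windows of *RPT2* and *RPT6* hold the same 9 bases in the same direction. *RPT1* and *RPT3* lay between these, at 0.55 and 0.48 in MPA + Guanine over Guanine. In MPA over DMSO *RPT3* was at 0.74 (0.12 to 1.34) and *RPT1* at 0.27 (-0.18 to 0.71).

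In the core, the ratios of MPA + Guanine over Guanine ran between 0.07 and 1.11 and were all above 0, although the lowest, *PRE5* at 0.07 and *PRE7* at 0.12, fell below the median of all genes. *PUP2*, an alpha subunit, had 1109 CPM in MPA, 1144 CPM in MPA + Guanine, 530 CPM in Guanine and 823 CPM in DMSO, and gave the largest ratio of the class, 1.11 (0.80 to 1.43). *PRE6*, the alpha subunit that can replace its neighbour Pre9 in the ring, had 924 CPM in MPA, 701 CPM in MPA + Guanine, 364 CPM in Guanine and 450 CPM in DMSO. It gave the largest ratio of the class in MPA over DMSO, 1.04 (0.65 to 1.42). *PRE9*, the only alpha or beta gene that yeast can lose and live, had 360 CPM in MPA, 411 CPM in MPA + Guanine, 309 CPM in Guanine and 437 CPM in DMSO, and gave the lowest ratio of the class in MPA over DMSO, -0.28 (-0.85 to 0.25), an interval that includes 0. *PRE10*, another alpha gene, had 379 CPM in MPA, 443 CPM in MPA + Guanine, 226 CPM in Guanine and 321 CPM in DMSO, and was at 0.97 (0.48 to 1.48) in MPA + Guanine over Guanine. *PRE8*, also alpha, had 331 CPM in MPA, 443 CPM in MPA + Guanine, 337 CPM in Guanine and 357 CPM in DMSO, and was at -0.11 (-0.71 to 0.46) in MPA over DMSO.

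The catalytic beta genes were compared in the same way. *PRE3*, which encodes the caspase-like subunit, had 681 CPM in MPA, 675 CPM in MPA + Guanine, 351 CPM in Guanine and 482 CPM in DMSO. *PUP1*, the trypsin-like subunit, had 467 CPM in MPA, 511 CPM in MPA + Guanine, 328 CPM in Guanine and 350 CPM in DMSO. *PRE2*, the chymotrypsin-like subunit, had 467 CPM in MPA, 507 CPM in MPA + Guanine, 346 CPM in Guanine and 463 CPM in DMSO. All 3 had their lowest value in Guanine. Their log2 ratios of MPA + Guanine over Guanine were 0.95 (*PRE3*), 0.64 (*PUP1*) and 0.55 (*PRE2*), each with an interval above 0. *PRE4* and *PRE1* are non-catalytic beta genes. *PRE4* had 379 CPM in MPA, 368 CPM in MPA + Guanine, 245 CPM in Guanine and 231 CPM in DMSO. *PRE1* had 243 CPM in MPA, 340 CPM in MPA + Guanine, 268 CPM in Guanine and 276 CPM in DMSO. Of the non-catalytic beta genes, *PRE4* had the highest ratio in MPA over DMSO, 0.71 (0.11 to 1.30), and *PRE1* the lowest, -0.18 (-0.89 to 0.47). The other core genes, *PUP3* and *SCL1*, were at 0.22 each in MPA + Guanine over Guanine, with intervals that include 0.

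In the lid, *RPN7*, a structural subunit, differed most. *RPN7* (YPR108W, chromosome XVI) had 555 CPM in MPA, 600 CPM in MPA + Guanine, 180 CPM in Guanine and 453 CPM in DMSO, and its ratio was 1.74 (1.23 to 2.28) in MPA + Guanine over Guanine and -1.33 (-1.88 to -0.81) in Guanine over DMSO. *RPN11*, the deubiquitinase that cleaves chains from substrates, had 321 CPM in MPA, 461 CPM in MPA + Guanine, 254 CPM in Guanine and 334 CPM in DMSO. *RPN8*, which pairs with Rpn11, had 817 CPM in MPA, 976 CPM in MPA + Guanine, 489 CPM in Guanine and 694 CPM in DMSO. The pair gave similar ratios in MPA + Guanine over Guanine, 0.86 (0.40 to 1.34) for *RPN11* and 0.997 (0.67 to 1.33) for *RPN8*. *RPN5*, another structural subunit, had 272 CPM in MPA, 440 CPM in MPA + Guanine, 364 CPM in Guanine and 411 CPM in DMSO. Its ratio in MPA over DMSO, -0.59 (-1.24 to 0.0044), was the lowest of all subunits. *RPN6*, which clamps the cap onto the core, had 195 CPM in MPA, 243 CPM in MPA + Guanine, 129 CPM in Guanine and 148 CPM in DMSO, and was at 0.91 in MPA + Guanine over Guanine and 0.40 in MPA over DMSO. *RPN9*, a structural lid subunit, had 389 CPM in MPA, 297 CPM in MPA + Guanine, 152 CPM in Guanine and 254 CPM in DMSO, and its ratios in the same contrasts were 0.96 and 0.62. *RPN12*, the last subunit to join the lid, had 233 CPM in MPA, 297 CPM in MPA + Guanine, 143 CPM in Guanine and 228 CPM in DMSO, with ratios of 1.05 and 0.03. Across the lid, 6 of 7 genes with a ratio were called higher in MPA + Guanine over Guanine, beside 6 of 10 in the base, 6 of 14 in the core and 28.4% of all genes. The exception in the lid was *RPN5* at 0.27.

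*RPN4*, which encodes the activator of the subunit genes, had its highest level in MPA + Guanine. *RPN4* (YDL020C, chromosome IV) had 18 UMIs in MPA, 99 in MPA + Guanine, 41 in Guanine and 73 in DMSO, which is 175, 354, 189 and 235 CPM in that order. The MPA + Guanine value was higher than Guanine by 0.90 (0.36 to 1.47) on the log2 scale, than MPA by 1.01 (0.28 to 1.83) and than DMSO by 0.59 (0.14 to 1.05). The last of these was 0.34 (-0.11 to 0.79) relative to the median of all genes, an interval that includes 0. In MPA over DMSO *RPN4* was at -0.42 (-1.25 to 0.34), where the subunit sum was at 0.32. The mRNA alone was measured, and the level of the Rpn4 protein is also set by its degradation.

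*UBI4*, a stress-induced gene of tandem ubiquitin units, had its highest level in MPA + Guanine. It had 12 UMIs in MPA, 156 in MPA + Guanine, 42 in Guanine and 57 in DMSO, or 117, 558, 194 and 183 CPM in that order. Its log2 ratio was 1.52 (1.03 to 2.05) in MPA + Guanine over Guanine, 1.61 (1.16 to 2.07) over DMSO and 2.26 (1.41 to 3.24) over MPA. It was at -0.65 (-1.68 to 0.26) in MPA over DMSO. At least 1 *UBI4* UMI was seen in 12.9% of MPA cells, 38.8% of MPA + Guanine cells, 13.2% of Guanine cells and 20.2% of DMSO cells. The coding sequence of *UBI4* is 86.8% identical to that of *RPS31*, 86.0% to *RPL40A* and 84.2% to *RPL40B* in its ubiquitin units, and how reads matching several of them were counted is not given in the sources used here. These fusion genes, which supply ubiquitin joined to a ribosomal protein, ran the other way in MPA + Guanine over Guanine, with a summed log2 ratio of -0.72 (-0.80 to -0.64). *RPL40A* was at -1.02, *RPL40B* at -0.92 and *RPS31* at -0.53 there. The fusion genes are also ribosomal protein genes, which together took 36.2% of the UMIs in Guanine and 18.9% in MPA + Guanine.

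Genes around the proteasome were read from short lists. Of the Cdc48 and shuttle factor genes, 5 of 9 had a ratio in MPA + Guanine over Guanine, 4 of them were called higher, against 28.4% of all genes, and the median was 1.01 beside 0.15. The list summed to 1.42 (1.19 to 1.65). That sum sets *NPL4* (41 UMIs in MPA + Guanine), *RAD23* (40), *DOA1* (36) and *UFD2* (18) against a listed 0 in Guanine. The interval does not cover UMIs that the listing may have left out. *CDC48*, the segregase that extracts ubiquitin-tagged proteins, was at 1.22 (0.86 to 1.59), *UFD1*, its cofactor, at 1.51 (0.99 to 2.07), and *SHP1*, another cofactor, at 1.01 (0.35 to 1.70). In MPA over DMSO 1 of 6 was called higher, against 25.2% of all genes, namely *DSK2*, a shuttle factor, at 0.62 (0.01 to 1.20). Of the assembly and accessory genes, 2 of 5 with a ratio were called higher in MPA + Guanine over Guanine, against 28.4% of all genes, namely *UBP6*, a proteasome-bound deubiquitinase, at 1.72 (1.19 to 2.29) and *SEM1*, which also belongs to the lid, at 0.71 (0.40 to 1.02). *UBP6* was at -0.77 (-1.37 to -0.19) in Guanine over DMSO. In MPA over DMSO 2 of 5 were called higher, against 25.2% of all genes, and *UMP1*, a chaperone of core assembly, was at 0.83 (0.33 to 1.32).

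The ubiquitin conjugation genes summed to a log2 ratio of 0.93 (0.74 to 1.14) in MPA + Guanine over Guanine. Of these genes 8 of 16 were listed at 0 in Guanine, and their UMIs in MPA + Guanine entered that sum against 0. The interval does not cover UMIs that the listing may have left out. Of the 7 with a ratio 3 were called higher, against 28.4% of all genes, and 1 lower, against 18.4%. Their median was 0.26 beside 0.15, which leaves out the genes listed at 0. The conjugating enzyme genes *UBC4* and *CDC34* were at 0.78 (0.44 to 1.13) and 0.91 (0.28 to 1.56) there, and *CDC34* was at 0.99 (0.17 to 1.79) in MPA over DMSO. *TOM1*, a ubiquitin ligase gene, was at 1.18 (0.29 to 2.05) in MPA over DMSO and listed at 0 in Guanine. The same counts, 3 of 7 higher and 1 lower, were found in MPA over DMSO, against 25.2% and 10.3% of all genes. The summed ratio there was -0.06 (-0.31 to 0.20), and this sum likewise includes genes listed at 0 in MPA. Among the regulators of *RPN4*, 2 of 3 with a ratio were called higher in MPA + Guanine over Guanine, against 28.4% of all genes. *YAP1* was at 1.38 (0.79 to 2.01) there and *HSF1* at 1.61 (0.74 to 2.57). *PDR3*, the remaining one with a ratio, stood at -0.56 (-1.48 to 0.35), and *PDR1* was listed at 0 in Guanine. Of the vacuolar proteases, the other main route of protein breakdown, 1 of 4 was called higher in that contrast, against 28.4% of all genes, *APE1* at 1.16 (0.71 to 1.63). *CPS1*, the vacuolar protease gene without a ratio, had 32 UMIs in Guanine and was listed at 0 in MPA + Guanine.

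The ratios were also read by promoter motif, a grouping chosen after the values had been seen. In MPA + Guanine over Guanine the median log2 ratio was 0.73 for the 26 subunits with the PACE motif and a ratio, and 0.66 for the 5 subunits without it, which was close. Outside the set, 45 genes carry the motif upstream, 39 of them in the matrix, and 19 of these had a ratio in that contrast. Their median was 0.70, beside 0.15 over all genes, and 11 of 19 were called higher, against 28.4% of all genes. In Guanine over DMSO their median was -0.35, beside 0.05, with 6 of 19 called lower, against 15.7% of all genes. In MPA over DMSO 5 of 22 were called higher, against 25.2% of all genes, with a median of 0.30 beside 0.18. *CDC48*, *UBA1*, *ECM29* and *YAP1* are among these genes, and some of the 300-base regions are shared with a neighbouring gene that runs the other way. For *NOP14* beside *RPN5* and *GCD1* beside *RPT4* the neighbour is a subunit gene. The motif genes outside the set are therefore not all independent of it.

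Pooled over 32 genes, subunit UMIs were seen in nearly all cells, a share that is close to its ceiling at this depth. No cells that lack the genes were available to measure free RNA. After thinning each cell to 400 UMIs, at least 1 subunit UMI was seen in 97.6% of 85 MPA cells, 98.8% of 255 MPA + Guanine cells, 98.7% of 225 Guanine cells and 97.8% of 229 DMSO cells, with 0, 13, 33 and 4 shallower cells left out in the same order. The mean number of subunit UMIs per thinned cell was 6.29 in MPA, 6.42 in MPA + Guanine, 3.93 in Guanine and 5.02 in DMSO. The variance over the mean was 1.89 in MPA, 1.82 in MPA + Guanine, 1.22 in Guanine and 1.20 in DMSO. This ratio moves with the mean and the depth, and at 200 UMIs per cell it was 1.56 in MPA, 1.39 in MPA + Guanine, 1.26 in Guanine and 1.26 in DMSO. Without thinning, the shares were 100% in MPA, 98.9% in MPA + Guanine, 98.1% in Guanine and 99.6% in DMSO, and the means 19.4, 17.6, 8.11 and 17.2 UMIs in that order.

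The deposited subclusters, which the authors made within each library from the same counts, differed in subunit level within MPA + Guanine. The 166 cells of MG.1 had 19409 CPM for the 32 subunits, the 77 cells of MG.2 had 11543 CPM and the 25 cells of MG.3 had 9040 CPM. MG.1 was thus above every other subcluster, including MPA.1 (85 cells, 16023 CPM), while MG.2 was below DMSO.1 (177 cells, 13017 CPM) and above Guanine.1 (135 cells, 9939 CPM) and Guanine.2 (123 cells, 9429 CPM). DMSO.2 (56 cells) had 12308 CPM. The log2 ratio of MG.2 over MG.1 was -0.75 (-0.86 to -0.64) for all subunits, beside a median of -0.28 over all genes. It was -0.55 with ribosomal protein genes left out of the totals, a change that moves the median by the same amount. With full totals the ratio of MG.2 over MG.1 was -1.01 for the base, -0.58 for the core and -0.71 for the lid. In that comparison 3 of 31 subunits lay above 0. MG.3 over MG.1 was at -1.10 (-1.35 to -0.87) for all subunits, beside a median of -0.60 over all genes. *RPN4* had 433 CPM in MG.1, 86.1 CPM in MG.2 (6 UMIs) and 550 CPM in MG.3 (9 UMIs), and *UBI4* had 676 CPM in MG.1, 273 CPM in MG.2 and 366 CPM in MG.3 (6 UMIs). *RPN2* had 1600 CPM in MG.1, 373 CPM in MG.2, 855 CPM in MG.3 and 1362 CPM in MPA.1, against 259 and 249 CPM in the Guanine subclusters. Ribosomal protein genes took 16.3% of the UMIs in MG.1, 27.2% in MG.2 and 13.8% in MG.3, and the median depth was 1097.5, 807 and 666 UMIs per cell. Their part in the difference was not tested beyond the totals above.

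**Figure D5:**
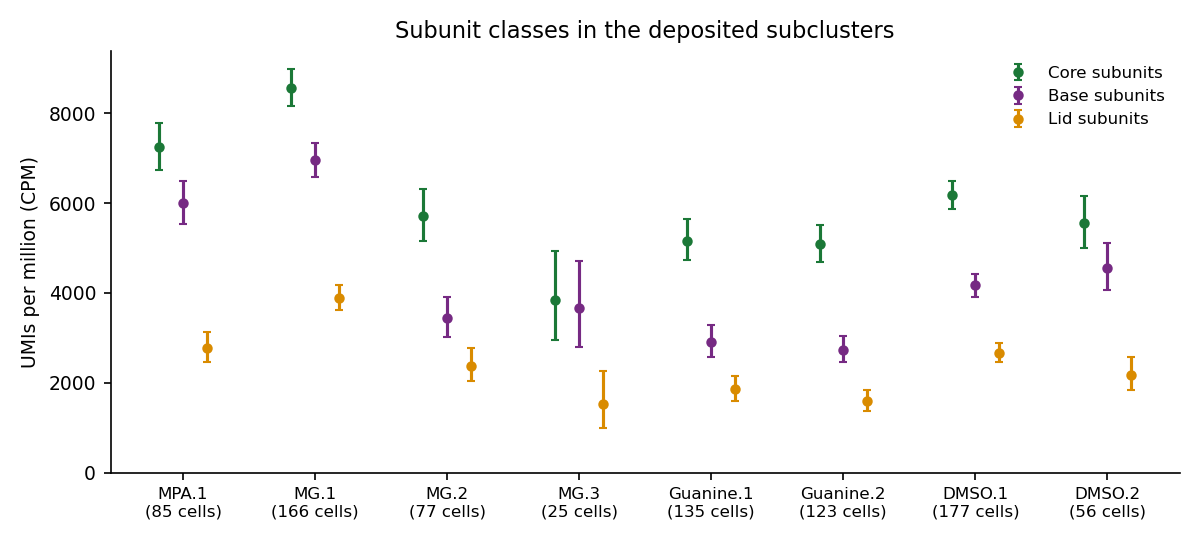
Summed CPM of core, base and lid subunits in the 8 deposited subclusters, with exact 95% counting intervals and the number of cells under each name. MG.1 is highest in all 3 classes, and MG.2 lies close to the Guanine and DMSO subclusters.

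The proportion of base to core differed between MG.1 and MG.2 and did not follow the subunit sum elsewhere. Base UMIs per core UMI were 0.827 in MPA.1, 0.812 in MG.1, 0.603 in MG.2, 0.952 in MG.3, 0.564 in Guanine.1, 0.538 in Guanine.2, 0.675 in DMSO.1 and 0.820 in DMSO.2. The MG.2 interval, 0.512 to 0.710, held the values of both Guanine subclusters and of DMSO.1, and the MG.3 interval, 0.657 to 1.38, was wide. In the subunit sum, the log2 ratio of Guanine.2 over Guanine.1 was -0.08 (-0.20 to 0.05), beside a median of 0.09 over all genes. It was -0.15 (-0.28 to -0.02) with ribosomal protein genes left out of the totals. DMSO.2 over DMSO.1 was at -0.08 (-0.19 to 0.03), beside a median of 0.05 over all genes. It was at -0.27 (-0.39 to -0.16) with those totals, ribosomal protein genes taking 25.9% of the UMIs in DMSO.2 and 35.2% in DMSO.1. The clusters made over all libraries together gave 12419 CPM in cluster 1, 10794 CPM in cluster 2, 15802 CPM in cluster 3 and 17265 CPM in cluster 4. In cluster 3, which held 80 of the 85 MPA cells, the sum was 15558 CPM in MPA cells, 15843 CPM in the 60 MPA + Guanine cells and 16945 CPM in the 16 DMSO cells.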

How the data were processed

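The authors trimmed reads with Trimmomatic, aligned them to the R64-1-1 genome with STAR, used UMI-tools and the Ensembl annotation to count UMIs, removed outlying cells with scater and clustered the cells with SC3. The deposited values used are those raw UMI counts, with the cell labels. In each library every gene with a UMI had at least 1 cell with 2 or more, so a gene listed at 0 may have had single UMIs, and no ratio was given. Whether strand was used in counting, and how reads with several matches were treated, is not given in the sources used here. Doublets were not removed.

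Counts of a library's cells were added up and expressed as CPM (Python 3.11.15, scipy 1.17.1). Ratios have exact conditional 95% intervals. With 1 library per condition no test was made. Calls needed a 1.5-fold difference and 50 UMIs over the 4 libraries. Values in all libraries or ratios are given for *RPN4*, *UBI4*, the 3 highest and 3 lowest genes of each class in MPA over DMSO, and genes past 1.5-fold with an interval that excludes 0 in another contrast, and list genes needed 100 UMIs. The other members are given briefly. Thinning drew UMIs without replacement (seed 1). The ratio and interval code was tested on simulated data. For TMM scaling, edgeR 4.0.16 was run under R 4.3.3. Promoter windows were read from the RefSeq R64 genome, and near copies were searched with blastn, which found 0 members with a copy of at least 90% identity over most of their length. The members and lists were chosen with earlier results of these data known. Alternatives changed the scaling, the minimum, the cells and the members.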

Additional observations from a re-analysis of the deposited data

Results flagged for a closer look

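Genes are listed here whose ratio had opposite signs in MPA + Guanine over Guanine and in MPA over DMSO. The first log2 ratio minus the second was 2.17 for *UBI4*, 1.37 for *RPT2*, 1.33 for *RPN4*, 0.92 for *RPN11*, 0.86 for *RPN5*, 0.69 for *PRE9*, 0.53 for *PRE1*, 0.50 for *PRE8* and 0.15 for *PRE5*. Each was above 0 with guanine present and below 0 without it, but relative to the median of all genes *PRE5* was at -0.08 with guanine present. The differences were not tested, since each condition is 1 library, and the counting interval of the MPA over DMSO ratio included 0 for each of these genes. The interval of MPA + Guanine over Guanine also included 0 for *PRE1*, *PRE5*, *PRE8*, *PRE9* and *RPN5*.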

How the results depend on the processing

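Alternatives were run for the subunit and class sums, *RPN4*, *UBI4*, the counts of calls and the thinned shares, and in these sums no sign turned where the interval had excluded 0. Scaling moved most. With TMM factors MPA over DMSO became 0.11 for all subunits, 0.056 for the core, 0.29 for the base and -0.089 for the lid, with 5 subunits past 1.5-fold. MPA + Guanine over Guanine became 0.61, 0.38, 0.87 and 0.79, and MPA + Guanine over DMSO 0.18, 0.12, 0.27 and 0.19, with 2 past 1.5-fold. With ribosomal protein genes left out of the totals, MPA + Guanine over Guanine became 0.46 for all subunits, 0.22 for the core, 0.72 for the base and 0.63 for the lid, and MPA + Guanine over DMSO 0.11, 0.045, 0.19 and 0.11, with 1 past 1.5-fold. MPA + Guanine over MPA then became -0.15, -0.16, -0.25 and 0.055, with 0 past 1.5-fold, and 1 subunit passed upward in Guanine over DMSO. Relative to the median of all genes, a setting chosen after seeing the data, MPA over DMSO became 0.14 (all), 0.082 (core) and 0.32 (base), MPA + Guanine over Guanine 0.65, 0.41 and 0.91, and MPA + Guanine over DMSO 0.13, 0.069, 0.21 and 0.14 with the lid. The mean of each cell's CPM gave 0.72 in MPA + Guanine over Guanine, -0.021 in MPA + Guanine over MPA and 1 subunit upward in Guanine over DMSO. Leaving out the 5% of cells with the most UMIs also gave 1 there. Without cells in which 1 gene held over 10% of the UMIs, 3 subunits passed upward in MPA + Guanine over MPA. Without *RPN2* the base stood at 0.85 in MPA + Guanine over Guanine. Across these settings 13 to 19 subunits passed upward in that contrast, 18 in the text. Thinned to 200 UMIs, 93.3% of MPA + Guanine, 78.7% of Guanine and 89.7% of DMSO cells had a subunit UMI, and unthinned 100% in MPA and 99.6% in DMSO. For *RPN4* in MPA + Guanine over DMSO the interval took in 0 with TMM, 0.39 (-0.06 to 0.85), and without ribosomal protein totals, 0.31 (-0.14 to 0.77), as did that of the core in MPA over DMSO with TMM (-0.07 to 0.18) or relative to the median. The causes were not tested apart from the scaling itself. Depth limits *RPN3*, *RPN4* and *UBI4* most, with 0 to 18 UMIs in MPA. No paired analysis was possible because each condition is 1 library.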
